A study of Mus musculus with 4 samples.

Results

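Cluster 1 of the mouse stomach epithelium was a group of mature chief cells, the zymogen-secreting cells at the base of the corpus gland. Its members were the cells that the authors' deposited annotation places in cluster 1, which were 896 of 4449 cells. All mice carried Rosa26iH2b-GFP, a doxycycline-inducible histone 2B-GFP fusion and its transactivator at the Rosa26 locus, were 14 weeks old, and had received doxycycline for 4 weeks followed by a chase of 6 weeks. Epcam-positive cells (Epcam+) and Epcam-positive cells with GFP (GFP+) were sorted after hematopoietic and endothelial cells had been gated out, and each sort gave 2 libraries of droplet-based single-cell RNA-seq. The Epcam+ sort was not depleted of GFP+ cells, so the sorts are not exclusive groups. The methods state that cells of 2 mice were combined, and whether the libraries of a sort represent different animals is not given in the sources used here. Cluster 1 contributed 200 cells to Epcam+ 1, 294 to Epcam+ 2, 145 to GFP+ 1 and 257 to GFP+ 2.

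Chief cells make digestive proenzymes on a dense rough endoplasmic reticulum (ER), pack them into zymogen granules and release them when acetylcholine or gut hormones raise intracellular calcium. They arise from mucous neck cells, and the factor Mist1, encoded by Bhlha15, builds the secretory architecture as they mature. In mice they also secrete intrinsic factor, and they can re-enter the cell cycle after injury. Proteins that enter the ER are translocated through the Sec61 channel, folded by chaperones and, if misfolded, returned to the cytosol for degradation.

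The label was checked against its markers. The 5 chief cell markers, Pla2g1b (a secreted phospholipase), Clps (colipase), Chia1 (acidic chitinase), Tmed6 (a cargo receptor of the early secretory pathway) and Bhlha15, were each higher in cluster 1 than in the other cells of the same library, in 4 of 4 libraries. Bhlha15 stood at 133, 121, 171 and 124 CPM (UMI counts scaled to equal totals, as described next) in Epcam+ 1, Epcam+ 2, GFP+ 1 and GFP+ 2, against 4.19, 4.13, 15.0 and 12.1 in the other cells. The lowest cluster 1 library was thus above the highest value of the other cells. Summed over the 10 listed markers of neck cells, cluster 1 held 939.6 to 4106 CPM and the other cells 13992 to 35909. For 11 counted markers of pit cells the sums were 24087 to 29104 and 50756 to 84502, of which Psca, described with the secreted products, made up most in cluster 1. The 12 endocrine markers summed to 143 to 595 CPM in cluster 1, the 8 tuft markers to at most 2.49 CPM, and the 5 counted immune markers to at most 0.19 CPM, and the authors had removed cells with any Ptprc or Pecam1 count. The 10 parietal markers summed to 766 to 939 CPM in cluster 1 and to 346 to 544 in the other cells. Among them Atp4a, Kcne2 and Cckar were each higher in cluster 1. Atp4a is described with the neck and pit products below, and Cckar with the receptors. Barcodes shared between libraries numbered 4, and 0 of them belonged to a cluster 1 cell.

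Messages of 3 genes made up most of the counts of the median cluster 1 cell, though the share fell to 31.2% in the lowest cell. Clps, Pla2g1b and Pgc (pepsinogen C, the precursor of a gastric protease) together held 82.5% of the unique molecular identifiers (UMIs, each counting 1 captured molecule) of the median cell, with 76.0% at the 10th and 85.7% at the 90th percentile. Separately, Clps held a median of 36.9%, Pla2g1b 26.0% and Pgc 19.1%. The share was nearly the same in the 4 libraries, with sums of 82.5%, 81.7%, 82.5% and 82.6% of cluster 1 UMIs in Epcam+ 1, Epcam+ 2, GFP+ 1 and GFP+ 2. Among the cells of cluster 5, the other cluster that the study assigns to chief cells, the median was 43.4% and the range from the 10th to the 90th percentile was 12.8% to 71.5%. Neck cells, cluster 0, had a median of 14.3%, which came mainly from Pgc, and the median of all other cells was 3.82%. Cluster 1 cells carried a median of 125624 UMIs against 31186 in the other cells. Without the 3 genes the order was inverted, at 21444 against 27729 UMIs per cell. Genes detected per cell were also fewer in cluster 1, with a median of 3996 against 5107.

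**Figure D1:**
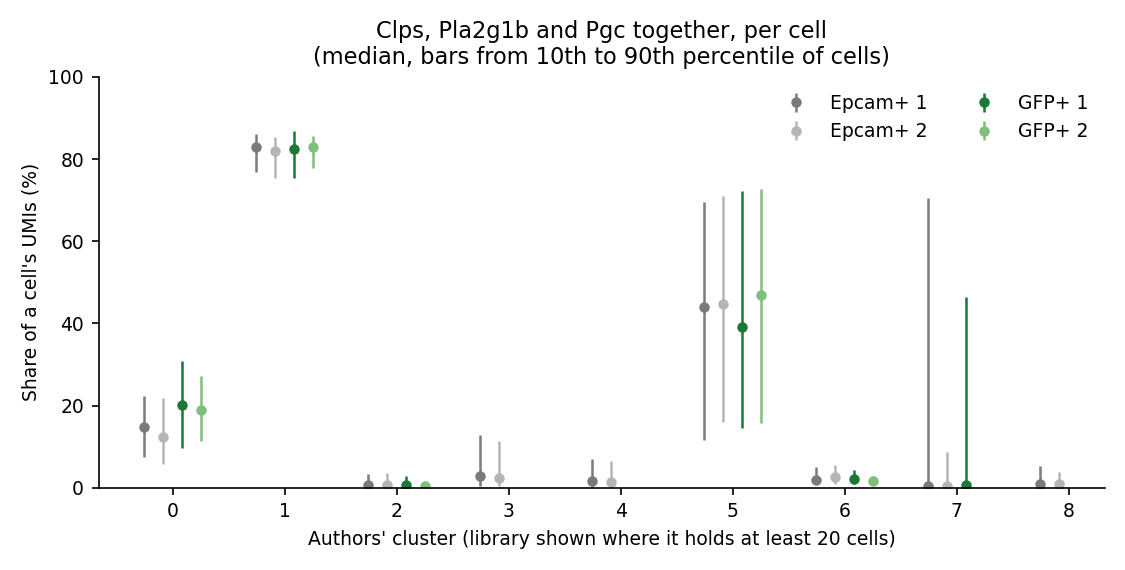
Share of a cell's UMIs held by Clps, Pla2g1b and Pgc together, in percent, for each of the authors' clusters and each library with at least 20 cells, as the median with bars from the 10th to the 90th percentile of cells. Cluster 1 sits at medians of 82.0% to 83.0% in the 4 libraries with short bars, while cluster 5 spreads widely around 43.4% and cluster 0 lies near 14.3%.

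Because these messages take so much of the total, all other levels are given as CPM without the 3 genes, that is, scaled to the UMIs of all remaining genes. Differences are log2 ratios with 1 CPM added to both sides, taken within each library, and centred on the median gene of that library. Before centring, the median gene was lower in cluster 1 by a mean log2 difference of -0.43 on these totals and of -2.32 when the 3 genes were kept in the totals, so every change below is relative to the median gene. A gene is called higher or lower when its centred difference was at least 1 (a factor of 2) in the same direction in each of 4 libraries, among 10245 genes with at least 5 CPM on either side. The authors' clusters were made from the expression of these same cells, so the comparison of cluster 1 with the other cells is a description and carries no test. By this rule 778 genes (7.59%) were higher and 1134 (11.1%) lower in cluster 1, and 341 (3.33%) lay above every other cluster of at least 20 cells in every library.

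Beyond the leading 3 genes, secreted products went in both directions. Of 15 tested in the list of other secreted products, 3 were higher (Chia1, Cblif and Nucb2) and 10 lower (median -2.51), among them the neck cell products Muc6 and Tff2. Chia1, whose enzyme cleaves chitin, stood at 99170, 96208, 95319 and 60345 CPM in Epcam+ 1, Epcam+ 2, GFP+ 1 and GFP+ 2 and at 537 to 2637 CPM in the other cells, a centred log2 difference of 6.61 ± 1.25 (SD, n = 4 libraries). GFP+ 2 was the lowest library and was still far above all values of the other cells. Psca, a GPI-anchored surface protein that had been listed among the pit cell markers, reached 23082, 25767, 24527 and 28489 CPM and was higher by 4.43 ± 0.34. Its next highest cluster was cluster 5 at a mean of 4174 CPM. Cblif (gastric intrinsic factor, which carries vitamin B12) stood at 21424 to 26558 CPM in cluster 1. Against cluster 5, at 20483 ± 2497 CPM, its difference was 0.56 ± 0.23, so Cblif did not separate the chief cell clusters at a factor of 2.

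Trypsin-type proteases gave the widest contrast. Try4 stood at 4569, 6599, 3392 and 6134 CPM in Epcam+ 1, Epcam+ 2, GFP+ 1 and GFP+ 2, and the other cells of the same libraries at 27.0, 28.9, 56.5 and 123 CPM. Its difference was 7.09 ± 1.05, and that of its neighbour Try10 was 7.33 ± 0.97. Try5 (4.11 ± 1.35), Prss3 (2.82 ± 1.05) and 2210010C04Rik (5.30 ± 2.37), all of the trypsin family, were also higher but low in level, and Prss3 did not pass with a pseudocount of 5 CPM. Reads of these near-identical paralogs are hard to assign to a given copy, so the single values are uncertain. In genome order Try4 spans positions 41302269 to 41305532 and Try10 positions 41354105 to 41357914 of chromosome 6 (GENCODE vM21 annotation, build GRCm38). Furin, which cleaves proproteins in the Golgi, was at 4575 to 5475 CPM and higher by 4.81 ± 1.05. Of 11 proteases tested, 6 were higher and 3 lower. The lower members were Pga5 (a second pepsinogen, -5.13 ± 1.21), Ctse (cathepsin E, -5.31 ± 0.36) and Cela1 (an elastase, -4.07 ± 0.44), each also lower than in cluster 5 and in cluster 0. A pepsinogen was therefore among the most abundant messages of cluster 1 while another, Pga5, was at 12.1 to 40.1 CPM.

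Among 6 genes of lipid digestion tested, Clps, Pla2g1b and Pnliprp2 were higher. Pnliprp2, a galactolipase of the pancreatic lipase family, stood at 4266, 3649, 5306 and 4671 CPM in Epcam+ 1, Epcam+ 2, GFP+ 1 and GFP+ 2, against 141 to 602 CPM in the other cells, and its difference was 4.37 ± 0.93. Its relative Pnliprp1 was at 472 ± 70.3 CPM in cluster 1, and its largest level was in the endocrine cluster 6 (5909 CPM), so that it was higher than cluster 5 by 1.99 but only 0.65 ± 0.99 from all other cells together. Cel, the bile salt-stimulated lipase, was lower by 4.37 on the log2 scale, with 4.57 ± 4.56 CPM in cluster 1 and 1649 CPM in cluster 6.

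Differences of chief cell genes varied between libraries mostly through the other cells. Tmed6 stood at 5973, 6558, 5358 and 5899 CPM in cluster 1, but at 143, 123, 273 and 337 CPM in the other cells, with the GFP+ libraries on top. Over the same libraries cluster 1 made up 12.2%, 15.5%, 31.0% and 57.9% of the cells and 31.0%, 36.5%, 61.3% and 83.3% of the UMIs, and the other chief cells of cluster 5 made up 5.18%, 4.80%, 13.3% and 9.01% of the cells. The part that free RNA or cluster 5 cells had in the level of the other cells was not tested.

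**Figure D2:**
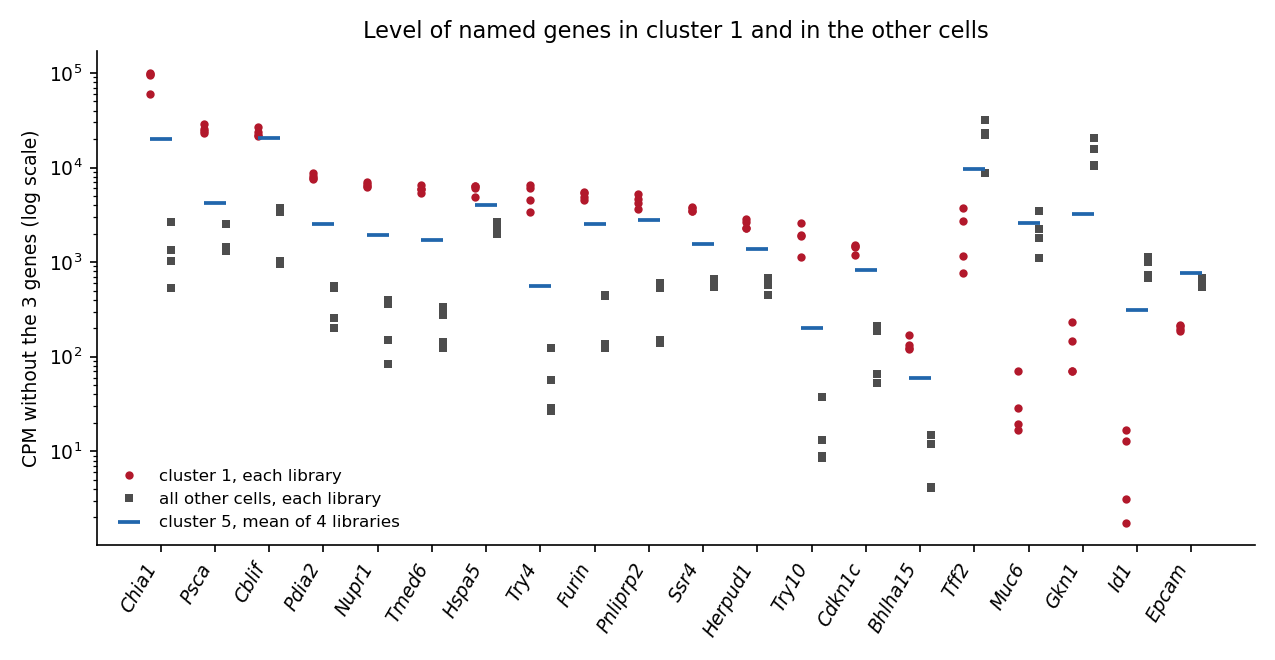
Level of 20 genes as CPM without the 3 genes on a log axis, in cluster 1 (red circles) and in all other cells (grey squares) of each of the 4 libraries, with the mean of cluster 5 as a blue bar. The first 15 genes lie above the other cells in each library, with cluster 5 between or, for Cblif, level with cluster 1, and Tff2, Muc6, Gkn1, Id1 and Epcam lie below.

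Further messages with a large difference encode secreted or stress-linked proteins that do not belong to the digestive set. Sostdc1, a secreted antagonist of BMP signals, was at 296, 358, 275 and 288 CPM in cluster 1 and at 2.7 to 6.4 CPM in the other cells (6.28 ± 0.60). Gdf9, a growth factor of the TGF-beta family best known from oocytes, was higher by 5.49 ± 0.31 at 70.1 ± 13.9 CPM. Hamp2, a hepcidin-type peptide, was higher by 5.45 ± 0.57. Nupr1, a small stress-induced nuclear protein, stood at 6757, 6232, 6316 and 6994 CPM against 83.4 to 396 CPM (5.41 ± 1.02), and its 4 cluster 1 values lay within a narrow range. Ttr (transthyretin, a carrier of thyroid hormone) stood at 6171, 4828, 5928 and 5053 CPM against 344 to 798 CPM in the other cells and was higher in each library. Nucb2, the precursor of nesfatin, was higher by 4.24 ± 0.62.

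Genes of the early secretory pathway were higher as groups. Of 23 ER translocation genes tested, 19 were higher and 0 lower, with a median difference of 1.54, where the median over all genes tested is 0 by construction. Ssr4, a subunit of the translocon-associated complex, stood at 3462, 3787, 3438 and 3713 CPM in cluster 1 and at 552 to 670 CPM in the other cells (2.99 ± 0.13). Srp9, a subunit of the signal recognition particle, was higher by 2.41 ± 0.14, and Sec61b, of the channel itself, by 1.94 ± 0.10. Of 25 ER folding genes, 17 were higher and 0 lower (median 1.63). Pdia2, a disulfide isomerase of zymogen-secreting cells, led them with 7824, 7617, 8780 and 8067 CPM against 199 to 557 CPM (4.94 ± 0.66). Ero1lb, an oxidase that recharges such isomerases, was higher by 3.96 ± 0.81, and the chaperone Hspa5 (BiP) by 1.81 ± 0.17 at 5926 ± 690 CPM. Of 17 ER degradation genes, 14 were higher and 0 lower (median 1.56), among them Derl3, a component of the export channel (4.57 ± 0.61), Edem2, a mannosidase (3.10 ± 0.35), and Herpud1 (2.67 ± 0.25 at 2519 ± 278 CPM). Ero1lb and Derl3 were named after their values were seen.

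A smaller share of genes was called in the other secretory lists. Of 18 N-glycosylation genes 7 were higher and 0 lower (median 0.94), with Krtcap2, of the oligosaccharyltransferase, at 1.86 ± 0.07. Of 38 genes for vesicle coats and cargo receptors 15 were higher and 0 lower (median 0.99). Tmed6 led these with 5.30 ± 0.78, and Tmed3 followed with 2.74 ± 0.39. For granule exocytosis the 17 genes tested had 2 higher and 2 lower (median 0.16), near the 7.59% higher and 11.1% lower over all genes tested. Syt7, a calcium sensor of secretion, was higher by 2.09 ± 0.83 but did not pass with totals over all genes. The zymogen granule protein Rab3d had a difference of 1.01 ± 0.06 and did not pass the rule. Calcium handling genes had 0 higher and 2 lower of 16 (median -0.11), the lower ones again near the share over all genes. The sums of the granule list were 1156 to 1191 CPM in cluster 1 and 1232 to 1356 CPM in the other cells.

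Against cluster 5 these groups were closer. There, 172 of 9831 genes (1.75%) were higher and 422 (4.29%) lower in cluster 1. Of the ER lists, 3 of 23 translocation genes, 3 of 25 folding genes and 3 of 17 degradation genes were higher, with medians of 0.75, 0.72 and 0.94, and 0 were lower. Ssr4 was higher than in cluster 5 by 1.56 ± 0.06 and Pdia2 by 2.04 ± 0.14, whereas Hspa5 differed by 0.94 ± 0.23. Against cluster 0, 672 of 9885 genes (6.8%) were higher and 762 (7.71%) lower, and 15 of 23, 17 of 25 and 13 of 17 genes of the same lists were higher, while 2 folding genes (Pdia5 and Dnajc10) were lower. The medians against cluster 0 were 1.24, 1.42 and 1.56, each above the corresponding median against cluster 5.

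Promoters of the ER genes were searched for the ER stress element, CCAAT and CCACG with 9 bases of any kind between them, which is bound by NF-Y together with Atf6 or Xbp1. The search covered 250 bases before each RefSeq transcript start (GRCm38.p6) on both strands. It matched 7 of 21 ER folding genes with a promoter entry and 2 of 14 ER degradation genes, against 35 of 27025 gene symbols (0.13%). It matched 0 of 16 translocation, 0 of 15 N-glycosylation and 0 of 33 vesicle genes, and most members of the folding and degradation lists lacked it as well. Of these 9 genes, 7 were called higher in cluster 1, and the remaining 2, Calr (1.13 ± 0.12) and Canx (-0.07 ± 0.10), were not. In the same lists, with or without the element, 17 of 25 folding and 14 of 17 degradation genes were higher. The element was in 14 of 8184 tested genes with a promoter entry (0.171%) and in 7 of 593 such genes called higher (1.18%). The elements of the called genes are shown as a description. The lists were chosen with earlier results of these data known and the motif after values were seen, so the matches carry no test. Each stretch is printed on the strand of the gene from 5′ to 3′ with the fixed letters of the element in capitals, and a match on the opposite strand appears as its complement.
Hspa5 (chr2:34772005-34772063, plus strand): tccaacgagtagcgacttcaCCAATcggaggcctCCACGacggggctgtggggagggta
Pdia6 (chr12:17266471-17266529, plus strand): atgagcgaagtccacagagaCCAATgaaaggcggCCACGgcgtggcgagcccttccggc
Dnajc3 (chr14:118937807-118937865, plus strand): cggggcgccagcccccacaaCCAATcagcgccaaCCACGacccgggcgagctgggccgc
Syvn1 (chr19:6046512-6046570, plus strand): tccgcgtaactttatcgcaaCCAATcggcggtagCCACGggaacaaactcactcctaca
Creld2 (chr15:88819500-88819558, plus strand): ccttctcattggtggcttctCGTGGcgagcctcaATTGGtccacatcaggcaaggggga
Derl3 (chr10:75893222-75893280, plus strand): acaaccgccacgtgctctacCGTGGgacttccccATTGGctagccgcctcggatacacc
Hsp90b1, distal element (chr10:86705618-86705676, minus strand): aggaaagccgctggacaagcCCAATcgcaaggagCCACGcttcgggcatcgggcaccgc
Hsp90b1, proximal element (chr10:86705513-86705571, minus strand): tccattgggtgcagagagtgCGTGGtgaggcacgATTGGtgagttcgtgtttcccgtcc

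The genes with an element differed widely in cluster 1. Derl3 was higher by 4.57 ± 0.61, Creld2 by 2.70 ± 0.26, Syvn1 (an ER ubiquitin ligase) by 2.67 ± 0.21, Dnajc3 by 2.44 ± 0.18, Pdia6 by 1.59 ± 0.08 and Hsp90b1 (the chaperone Grp94) by 1.27 ± 0.07. Hsp90b1, with 2 elements, had the smallest difference of the 7 and did not pass with totals over all genes. A match is a description of these letters and not a measured binding site. Xbp1, which encodes the factor that drives ER expansion in secretory cells, was itself at 1316, 1220, 1295 and 1260 CPM in cluster 1 against 408 to 576 CPM (1.82 ± 0.22), and its difference from cluster 5 was 0.59 ± 0.14. Atf6 was at 0.73 ± 0.18 and not called.

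Some messages for amino acid supply were also higher. Of 32 genes for tRNA charging, amino acid synthesis and transport, 10 were higher, 0 lower and 22 neither (median 1.14), and the tRNA synthetases among the higher genes were Cars, Lars and Nars. Phgdh, the first enzyme of serine synthesis, stood at 188, 214, 181 and 229 CPM against 19.4 to 26.7 CPM in the other cells (3.52 ± 0.25). Pycr1, of proline synthesis, was higher by 3.42 ± 0.56, Asns (asparagine synthetase) by 2.66 ± 0.11 and the transporter subunit Slc3a2 by 2.15 ± 0.26. These 4 genes were also higher than in cluster 5, Phgdh by 1.54 and Pycr1 by 1.22. Of 13 targets of the integrated stress response tested, 5 were higher (Nupr1, Chac1, Asns, Trib3 and Ddit4) and 0 lower. Atf4, which encodes the transcription factor of that response and is largely set by translation, had 247 ± 17.3 CPM in cluster 1 against 261 ± 36.7 CPM elsewhere (0.36 ± 0.10, not called). Chac1, which degrades glutathione, stood at 203, 179, 212 and 508 CPM in Epcam+ 1, Epcam+ 2, GFP+ 1 and GFP+ 2, so that GFP+ 2 was more than double the next library. Without GFP+ 2 Chac1 still passed the rule.

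The element TGATGCAA, a composite site for Atf4 and C/EBP factors, was found in the same promoter windows of 4 of 13 integrated stress response targets, 4 of 23 tRNA and amino acid genes and 1 of 14 ER degradation genes, against 248 of 27025 symbols (0.918%). Of these 9 genes, 4 were called higher in cluster 1, and Aars, Tars, Slc7a11, Atf3 and Vldlr were not. In the same lists, with or without the element, 5 of 13, 10 of 32 and 14 of 17 genes were higher. The element was in 55 of 8184 tested genes with a promoter entry (0.672%) and in 9 of 593 such genes called higher (1.52%). The matches of the called genes are printed in the same way.
Nupr1 (chr7:126625553-126625600, minus strand): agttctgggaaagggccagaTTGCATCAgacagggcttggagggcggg
Chac1 (chr2:119351029-119351076, plus strand): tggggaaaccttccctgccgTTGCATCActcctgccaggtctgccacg
Herpud1 (chr8:94386297-94386344, plus strand): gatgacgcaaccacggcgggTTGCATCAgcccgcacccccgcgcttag
Pycr1 (chr11:120643824-120643871, minus strand): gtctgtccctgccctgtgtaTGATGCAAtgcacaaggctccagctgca

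Counts in other housekeeping and stress groups stand beside 7.59% higher and 11.1% lower over all genes tested. Of 81 ribosomal protein genes 3 were higher and 0 lower (median 0.04), of 78 nuclear genes of the respiratory chain 4 were higher and 0 lower (median 0.38), and of 30 lysosome and autophagy genes 3 were higher and 0 lower (median 0.57). The autophagosome proteins Gabarap (1.76 ± 0.22) and Map1lc3b (1.27 ± 0.04) were among the latter, and Map1lc3b did not pass with totals over all genes. Heat shock genes had 1 of 17 higher, the small heat shock protein Cryab (4.57 ± 0.91, named after its value was seen). Immediate-early genes had 0 higher and 2 lower of 16. In both lists GFP+ 2 stood apart, with cluster 1 heat shock sums of 11531, 10529, 12533 and 19422 CPM and immediate-early sums of 20844, 19472, 20270 and 30797 CPM in Epcam+ 1, Epcam+ 2, GFP+ 1 and GFP+ 2. The other cells of GFP+ 2 also had the highest sums of the 4 libraries, at 13423 and 27999 CPM. Of 13 mitochondrially encoded genes 3 were higher and 0 lower (median 0.72).

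**Figure D3:**
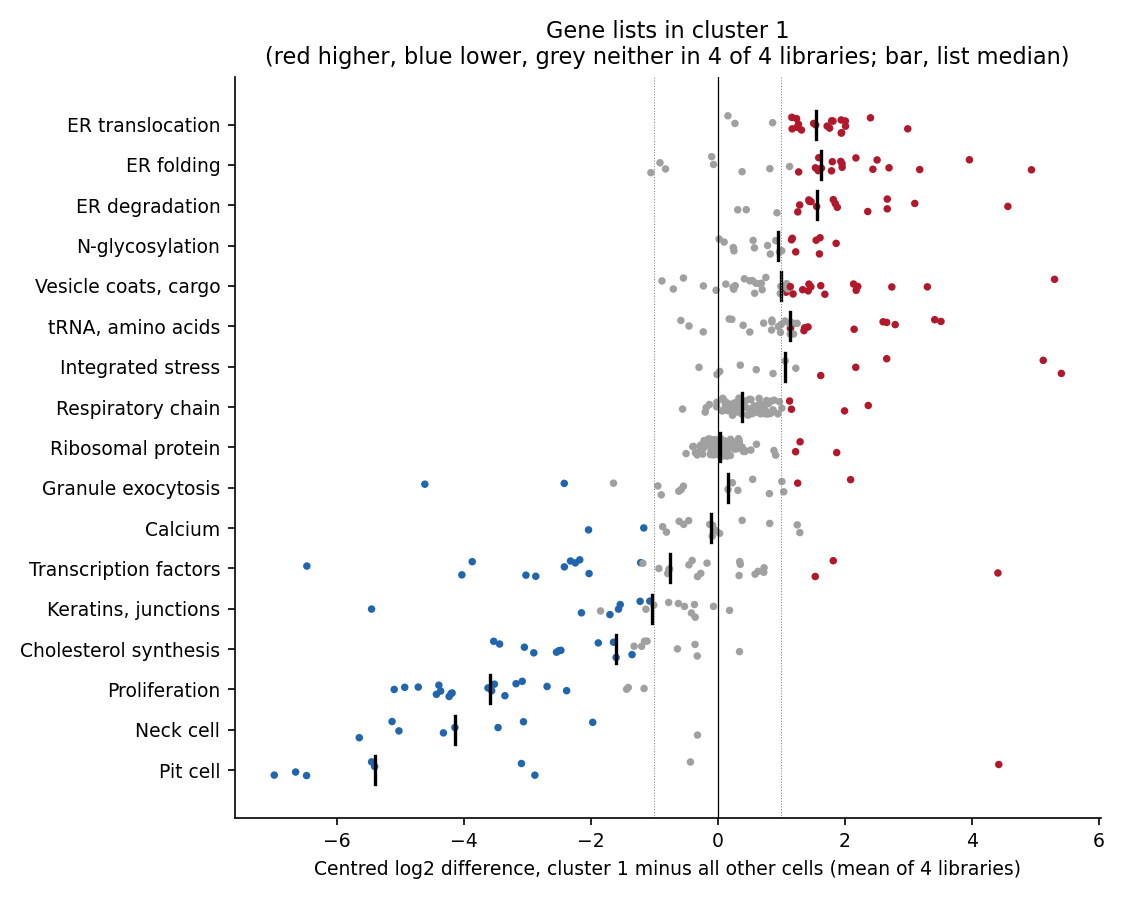
Centred log2 difference between cluster 1 and all other cells, as the mean of 4 libraries, for each tested gene of 17 lists, with red for higher, blue for lower and grey for neither in 4 of 4 libraries and a black bar at the list median. The ER lists lie to the right of 1 at medians of 1.54 to 1.63, ribosomal protein genes at 0.04, and proliferation, neck cell and pit cell genes at medians of -3.59, -4.14 and -5.40, with Psca alone to the right among the pit cell genes.

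Several lists held mostly or only lower genes among those called, and they cover a small part of the 1134 lower genes. Of 20 proliferation genes 17 were lower and 0 higher (median -3.59), and Mki67 and Top2a were at 2.5 ± 1.8 and 1.3 ± 0.9 CPM. Ccnd1 (cyclin D1) was lower by 3.59 on the log2 scale. It belongs to a list of cyclins and inhibitors of cyclin-dependent kinases, of which 11 were tested, 1 was higher and 4 lower (median -0.56). Over all genes tested 7.59% were higher and 11.1% lower. Besides Ccnd1, the lower genes of this list encode kinase inhibitors. Its 1 higher gene was Cdkn1c, which encodes the inhibitor p57, with 1513, 1184, 1481 and 1452 CPM in cluster 1 against 52.6 to 210 CPM in the other cells. Cluster 5 was next at 825 ± 194 CPM, and the difference from it, 1.16 ± 0.33, did not pass the rule. Of 19 cholesterol synthesis genes 11 were lower and 0 higher (median -1.60). Hmgcs1, an early enzyme of the pathway, was lower by 2.90 on the log2 scale at 45.8 ± 5.75 CPM. Against cluster 5, 3 of 19 were lower (median -0.91). Among 18 keratin and junction genes 7 were lower, including Krt8 (-1.56 ± 0.18) and Epcam (-1.22 ± 0.13), the surface protein used in the sorting. Epcam stood at 203 ± 13.4 CPM in cluster 1 and 638 ± 59.3 CPM in the other cells, and was also lower than in cluster 5 by 1.54 on the log2 scale.

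Neck and pit products were low. Of 9 neck genes tested 8 were lower and 0 higher, and each of the 9 was lower than in cluster 0. Muc6, the gland mucin, was at 33.7 ± 24.8 CPM (-5.64 ± 1.08). Tff2 (trefoil factor 2) stood at 3737, 1171, 2697 and 760.3 CPM in Epcam+ 1, Epcam+ 2, GFP+ 1 and GFP+ 2, with a wide range inside each sort, against 8834 to 31422 CPM in the other cells (-3.06 ± 0.61). Of 9 pit genes 7 were lower, with Tff1 at -6.98 ± 1.03 and Gkn2 at -6.65 ± 1.12. Gsta1, a glutathione transferase abundant in pit cells, had the largest negative difference, -7.13 ± 1.37, among genes with at least 50 CPM in the other cells. Among 8 parietal genes 3 were higher, namely Atp4a, Kcne2 and Cckar, the last described with the receptors. Atp4a, the catalytic subunit of the proton pump, stood at 340, 306, 384 and 216 CPM against 89.9, 102, 29.5 and 14.2 CPM (3.17 ± 1.19). Parietal cells of cluster 8 held 3581 CPM of Atp4a. These cells came from the Epcam+ libraries alone, 23 from Epcam+ 1 and 28 from Epcam+ 2. The part of parietal cell RNA in the level of cluster 1 was not tested.

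Transcription factors were mostly level or lower. Of 31 tested, 3 were higher, Bhlha15 (4.41 ± 0.74), Xbp1 and Creb3l2 (1.54 ± 0.49, not passing with totals over all genes or with equal weight per cluster), and 11 were lower. The median difference of the list was -0.76. Over all genes tested 7.59% were higher, a share near that of the list, and 11.1% were lower. The Id genes, whose products hold basic helix-loop-helix factors off DNA and are classical targets of BMP signals, were among the lower members, and Id1 and Id3 had the most negative differences of the list. Id1 stood at 16.9, 12.98, 3.14 and 1.75 CPM in Epcam+ 1, Epcam+ 2, GFP+ 1 and GFP+ 2 against 999, 1136, 731 and 685 CPM in the other cells (-6.47 ± 0.99). It was also lower than in cluster 5 (-4.81 ± 0.95) and cluster 0 (-5.76). Id3 was at -4.03 ± 0.43 and Id2 at -2.24 ± 0.31, each again lower than in both neighbours. Foxq1 (-2.86 ± 0.06), Klf5 (-2.02 ± 0.12) and Elf3 (-2.17 ± 0.21), factors of mucous and barrier epithelium, were lower, as was the ER-anchored factor Creb3l4 (-2.41 ± 0.31). Gata4 (-0.17 ± 0.13), Foxa1 (0.34 ± 0.10) and Sox2 (0.73 ± 0.21), factors of foregut identity, were not called.

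Receptors split evenly, with 5 of 18 higher and 5 lower. Gper1, a membrane estrogen receptor, stood at 349, 311, 357 and 343 CPM against 9.0 to 40.5 CPM (4.41 ± 0.95) and was higher than in cluster 5 by 1.23 ± 0.15. Cckar, the cholecystokinin receptor, was at 281 ± 24.2 CPM (3.43 ± 0.76) with 209 ± 45.8 CPM in cluster 5. Chrm3 and Chrm1, the muscarinic receptors for acetylcholine, were at 8.69 ± 1.93 and 3.13 ± 0.50 CPM, with differences of 0.24 ± 0.31 and -0.37 ± 0.13. Lgr5, a Wnt-linked receptor used to mark reserve cells, was higher than in all other cells (2.12 ± 0.78) at 19.9, 26.0, 32.5 and 28.3 CPM, but its level in cluster 5 was 70.7 ± 31.0 CPM and the difference from cluster 5 was -0.94 ± 0.54, not called. Tnfrsf19 (Troy) was alike, with 2.03 ± 0.61 against all other cells and -0.32 against cluster 5. Fgfr2 (-3.56 ± 0.45), Egfr (-2.27 ± 0.20), Erbb2 (-2.01 ± 0.36) and Erbb3 (-1.65 ± 0.19), receptors for growth factors, were lower. Egfr and Erbb2 did not pass with totals over all genes, nor Erbb2 and Erbb3 with equal weight per cluster.

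**Figure D4:**
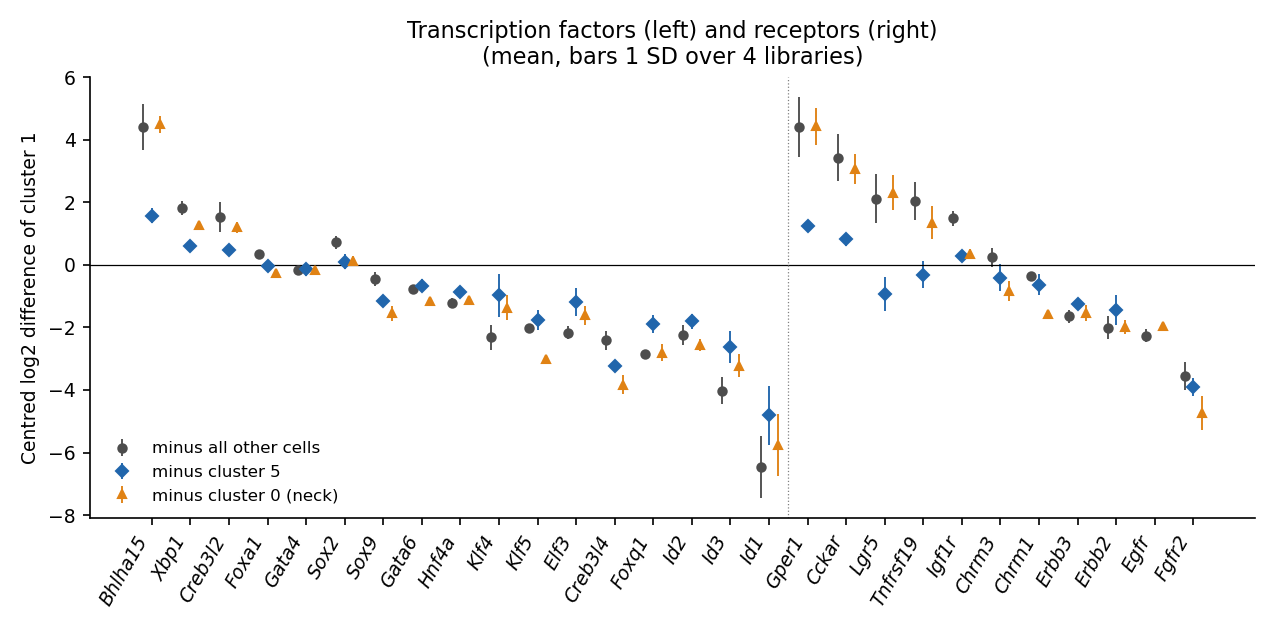
Centred log2 difference of cluster 1 from all other cells (circles), cluster 5 (diamonds) and cluster 0 (triangles) for 17 transcription factors and 11 receptors, as the mean with bars of 1 SD over 4 libraries; a marker is left out where a gene was under 5 CPM on both sides. Bhlha15 lies at 4.41, 1.57 and 4.49, Id1 at -6.47, -4.81 and -5.76, and Lgr5 at 2.12, -0.94 and 2.31.

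Cells within cluster 1 differed more in some products than in others. Over 521 genes with at least 5 UMIs per cluster 1 cell, the median coefficient of variation over cells beyond counting error was 0.267, as the mean of the 4 libraries. Genes of the secretory machinery differed in this measure, with 0.244 for Sec61b, 0.305 for Ssr4, 0.327 for Pdia2, 0.504 for Hspa5, 0.653 for Derl3 and 0.691 for Hsp90b1. Tmed6 (0.367) ranged from 2972 CPM at the 10th to 8804 CPM at the 90th percentile of cells. Chia1 ranged from 152 to 242290 CPM, with a coefficient of 1.53. Its median over cells was 21611, 19487, 17512 and 3718 CPM in Epcam+ 1, Epcam+ 2, GFP+ 1 and GFP+ 2, so the lower sum of GFP+ 2 went with a lower median. Try4 ranged from 296 to 14417 CPM (1.46). The largest coefficient was that of Spp1 (osteopontin), with a median of 0 and a 90th percentile of 1893 CPM. Tff2 came next with a coefficient of 2.84, a median of 315 and a 90th percentile of 3930 CPM. Spp1 was named after its values were seen. Cells of a library are not replicates, and these ranges describe the cells that were captured.

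**Figure D5:**
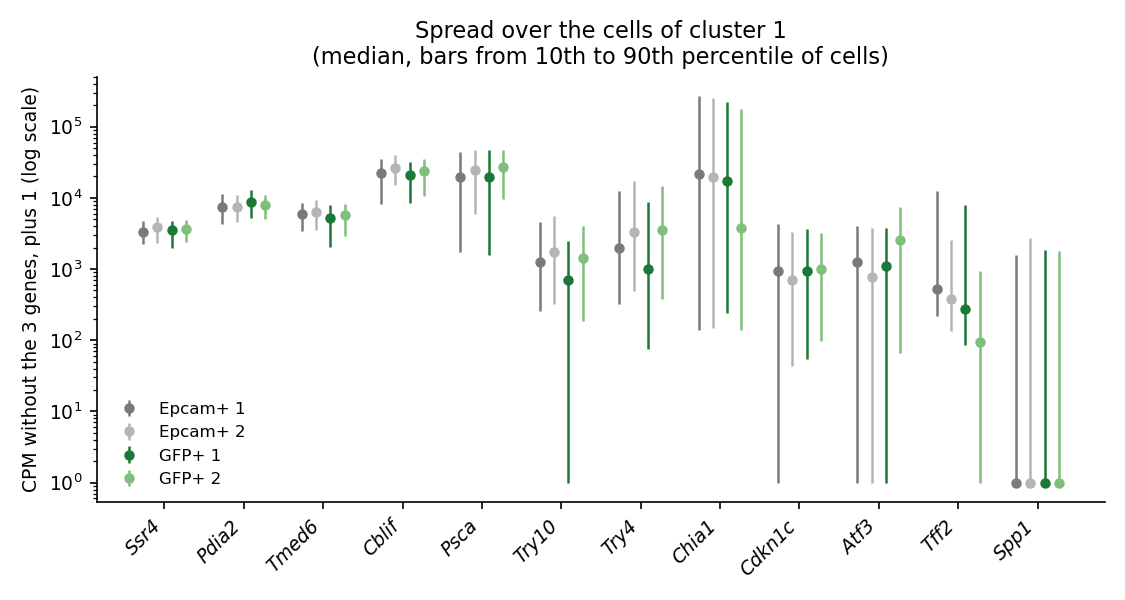
Level of 12 genes over the cells of cluster 1, as CPM without the 3 genes plus 1 on a log axis, shown per library as the median with bars from the 10th to the 90th percentile of cells. Ssr4, Pdia2, Tmed6 and Cblif have shorter bars than Chia1, Try4 and Tff2 although their coefficients lie above the median gene, Chia1 spans from 152 to 242290 CPM over all cells, and the Spp1 median is 0 in each library.

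The number of genes that differed between the sorts within cluster 1 depended on the fit. The 4 cluster 1 sums were compared with edgeR's quasi-likelihood test, two-sided and adjusted by Benjamini-Hochberg over all genes, whose p-values measure library-to-library variation alone, part of which can be technical. By this test 4 of 10146 genes rose (0.0394%) and 5 fell (0.0493%) in GFP+, and 809 had an unadjusted p under 0.05. These 9 genes became 412 with the replicate number as a block, 236 with no filter on low counts and up to 78 when 1 library, GFP+ 1, was left out. 2210010C04Rik, a trypsin-type gene, fell most clearly, from 220 and 267 CPM in the Epcam+ libraries to 51.0 and 51.9 in the GFP+ libraries (log2 fold change -2.21, edgeR adjusted p = 8.67e-05). Gkn1 (-1.40, edgeR adjusted p = 0.0348), Gkn2 (-1.43, 0.0348) and Mucl3 (-2.59, 0.0135) also fell, and pit cells made up 22.1% and 23.8% of the Epcam+ libraries but 8.99% and 6.08% of the GFP+ libraries. The part of pit cell RNA in these falls was not tested. Id1 fell with them (-2.66, edgeR adjusted p = 0.0285). mt-Atp8 (0.74), Lars2 (0.65) and Cel (3.71) were among the genes that rose, Cel from 0.50 and 0.75 CPM to 8.11 and 8.90 CPM, while the cluster 6 cells in which it was highest made up 3.78%, 4.43%, 11.1% and 5.86% of the 4 libraries. Chac1 (0.95, edgeR adjusted p = 0.486) and Atf3 (0.77, edgeR adjusted p = 0.495) did not pass in the fit without a block. Without Epcam+ 2, Lars2 (adjusted p = 0.429) and mt-Atp8 (0.299) no longer passed in edgeR, without GFP+ 1 Gkn1 did not (0.0546), and without cells called doublets Lars2 did not (0.0511).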

How the data were processed

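The authors aligned and counted droplet-based 3′ reads with Cell Ranger 3.0.2 on mm10, kept cells with 1500 to 8000 genes, at most 15% mitochondrial UMIs and neither Ptprc nor Pecam1, and clustered these. They deposited raw UMI counts, which are whole numbers, of 17712 genes in 4449 cells, with the library and cluster of each cell. Totals were 35571141 to 79455225 UMIs per library, and cluster 1 held 21808381 to 39317472 of them, or 3820280 to 6855166 without Clps, Pla2g1b and Pgc. These sums limit counting error to low values, and the number of libraries limits precision. Counts were summed per library and cluster (Python 3.11.15, pandas 2.3.3), and UMIs were not divided by transcript length, since each marks a 3′ end. Libraries and not cells are the replicates. The sorts were compared with edgeR 4.0.16 (R 4.3.3; TMM factors, filterByExpr, glmQLFit, adjusted p under 0.05), with DESeq2 1.42.0 as an alternative. Cells called doublets by Scrublet in scanpy 1.11.5 (74 of 4449, 4 in cluster 1) were kept in the main values.

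Members and the 35 gene lists were chosen with earlier results of these data known, and the promoter motifs after values were seen. Named are the 5 markers, the 25 highest genes, the 20 largest rises and 20 largest falls at 50 CPM or more, up to 6 of each list, all tested proteases, lipid-digesting enzymes, factors and receptors, and genes past the sort threshold. Not every gene that meets this rule is printed, and some results are not reported here. Aars, Tars, Cars, Lars, Pdia5, Dnajc10, Slc7a11, Vldlr, Canx, Creld2, Derl3, Dnajc3, Pdia6, Syvn1, Pycr1, Ddit4, Trib3, Ero1lb, Mki67, Top2a, Cryab, Spp1, H2-T23 and Psmb9 fall outside it and were chosen after their values were seen. Both computations were tested on simulated data. Alternatives were other totals, TMM, equal weight per cluster, no cluster 5, pseudocounts of 0.1 and 5 CPM, no filter, no doublets and leaving out each library.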

Additional observations from a re-analysis of the deposited data

Results flagged for a closer look

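The difference between cluster 1 and the other cells had opposite signs in the Epcam+ and the GFP+ libraries for 5 named genes, which is why they are listed. Whether the sorts differ was not tested for them. The mean of the GFP+ libraries minus that of the Epcam+ libraries was 0.24 on the log2 scale for Eef1a1 (a translation elongation factor) and 0.61 for Hsp90ab1 (a cytosolic chaperone), both with single values between -0.21 and 0.64. Klk1 (a kallikrein protease) gave -0.61, with 0.01 and 0.12 in the Epcam+ and -0.60 and -0.49 in the GFP+ libraries. Tap2 (a peptide transporter of antigen presentation) gave -1.001, with 0.91 and 0.68 against -0.28 and -0.13. Gnat3, a tuft cell gene listed at 0 in cluster 1 in each library, gave 3.94, with 18.1 and 10.8 CPM among the other cells of the Epcam+ libraries and 0 in those of the GFP+ libraries. With 0 on both sides, its differences of 0.46 and 0.41 in the GFP+ libraries are the centring shift alone, so its opposite sign is no measured difference.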

How the results depend on the processing

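Genes higher and lower in cluster 1 numbered 778 and 1134. With totals over all genes they were 424 and 655, and lower genes were 688 with TMM factors and no centring (7415 genes tested), 516 with equal weight per cluster and 626 with a pseudocount of 5 CPM. With equal weight 686 were higher, so higher genes then outnumbered lower ones. Leaving out each library gave 808 to 877 higher and 1183 to 1225 lower. With totals over all genes 85 genes were higher and 193 lower than in cluster 5, and 370 were higher than in cluster 0. Leaving out cells with over 15% mt-encoded UMIs on totals without the 3 genes, chosen after seeing the data, gave 789 and 1132. Of 252 named genes, 0 changed the sign of a called difference under these alternatives, 21 lost their call with totals over all genes and 27 with equal weight. The median share of the 3 genes was 83.0% in Epcam+ 1 alone and 83.0% in GFP+ 2 alone. The 9 genes past the sort threshold became 19 with DESeq2 and 236 with no filter on low counts, and 13 to 78 when each library was left out in turn (50 without Epcam+ 1, 13 without Epcam+ 2, 78 without GFP+ 1 and 40 without GFP+ 2), where the lone library of a sort is assumed to vary like the other sort. With the replicate number as a block they became 412. The labels give only the number, deviations of same-numbered libraries correlated at 0.18 over genes, and whether such libraries share an animal or day is not given in the sources used here. The cause of these shifts was not tested. Depth limits genes under 5 CPM.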

Other observations

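Mitochondrial shares depend on the 3 leading genes as well. In cluster 1 the mt-encoded genes held a median of 1.31% of all UMIs but 7.60% of the UMIs left without Clps, Pla2g1b and Pgc, where the other cells had 6.43% and 7.04%. The authors' limit of 15% was applied to all UMIs. On the totals without the 3 genes, 34 of 896 cluster 1 cells (3.79%) and 12 of 3553 other cells (0.338%) exceeded 15%, and the highest cluster 1 cell reached 34.5%. The cluster 1 cells over the limit numbered 5, 11, 7 and 11 in Epcam+ 1, Epcam+ 2, GFP+ 1 and GFP+ 2.

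Among 14 antigen presentation genes 0 were higher and 2 lower in cluster 1 (H2-T23 and Psmb9), where 11.1% of all genes tested were lower. The median difference of the list was -1.41, with medians of -1.59 to -0.59 in the single libraries. B2m, the light chain of MHC class I, had the opposite sign to this median. It was at 348 ± 43.6 CPM against 194 ± 61.8 CPM in the other cells with a difference of 1.31 ± 0.40, and was not called.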
